A study of Mus musculus with 16 samples.

Results

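The lysosome is the acidic compartment in which macrophages and other phagocytes break down ingested material and worn-out organelles. A rotary proton pump, the V-ATPase, acidifies its lumen. Its V1 sector hydrolyses ATP and its V0 sector carries protons across the membrane. The low pH activates proteases of the cathepsin family, glycosidases and lipid hydrolases. Many of their genes share a short promoter element read by Tfeb and Tfe3, transcription factors that move to the nucleus when lysosomal demand rises. Cathepsins also act outside the cell, where they can cut matrix proteins of tendon and bone, and in neutrophils Ctsc (cathepsin C) activates the granule serine proteases.

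A set of 44 lysosomal genes, chosen by name, was followed across sorted myeloid cells of the healing bone-tendon interface. All 44 were among the 20200 genes of the count table and all 44 were tested among 11998 genes. They comprise 7 cysteine proteases, 3 other proteases, 7 glycosidases, 8 genes for lipid hydrolases with their cofactors and sterol export, 5 membrane proteins, 2 transcription factors, and 12 genes of the pump. The pump genes encode 4 V0 subunits, 6 V1 subunits and 2 accessory proteins. They were listed by gene name, with earlier results of these data known.

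The cells came from interface tissue harvested after anterior cruciate ligament reconstruction (ACLR) with a tendon graft in 12-week-old wild-type C57BL/6 mice. Live, lineage-negative CD45+ cells were sorted on day 1 and day 14 into 4 populations. CD9+ macrophages (Ly6G- CD11b+ F4/80+ CD9+) and CX3CR1+ macrophages (Ly6G- CD11b+ F4/80+ CX3CR1+ CD9-) were taken from the same F4/80+ gate. F4/80- myeloid cells were Ly6G- and CD11b+, and neutrophils were Ly6G+ and Ly6C+. Every group holds 2 libraries, each a pool of 5 to 7 mice, and every mouse was operated, so no level in unoperated tissue is given. All p-values measure the spread between such pools.

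The 16 libraries held 9233952 to 19814119 counts, and 56 of 58 marker genes for the sorted and other cell types were in the table. Neutrophil markers summed to 26172 to 52789 CPM (a gene's counts as a share of its library's TMM-scaled total, multiplied by the usual CPM factor) in the neutrophils, 14070 to 19025 in the F4/80- cells, 2315 to 9713 in CD9+ macrophages and 432 to 495 in CX3CR1+ macrophages. Eosinophil markers summed to 533 to 604 CPM in CD9+ macrophages of day 1 and 6606 to 10720 on day 14, and to at most 115 elsewhere. Macrophage and monocyte markers summed to 2675 to 3237 CPM in CX3CR1+ macrophages, 1339 to 2462 in CD9+ macrophages, 562 to 612 in F4/80- cells and 497 to 1195 in neutrophils. In such bulk samples a smaller number of cells of one type and less RNA per cell cannot be told apart. The part of these other cells in the results was not tested. Across all tested genes the 2 CD9+ libraries of day 1 were the least alike (Pearson r of 0.935, against 0.976 to 0.988 in the other groups), which is a correlation across genes within 1 group.

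The 44 genes together took the largest share of counts in CX3CR1+ macrophages, with 1.58% ± 0.0175 (SD, n = 2) on day 1 and 1.40% ± 0.00678 on day 14. CD9+ macrophages gave 1.20% ± 0.114 and 1.07% ± 0.189 on the same days. The share was 0.629% ± 0.0191 in neutrophils of day 1 and 0.455% ± 0.00449 on day 14. F4/80- cells had 0.544% ± 0.016 and 0.566% ± 0.0296. All 8 macrophage libraries lay above all 8 libraries of the F4/80- cells and neutrophils.

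**Figure D1:**
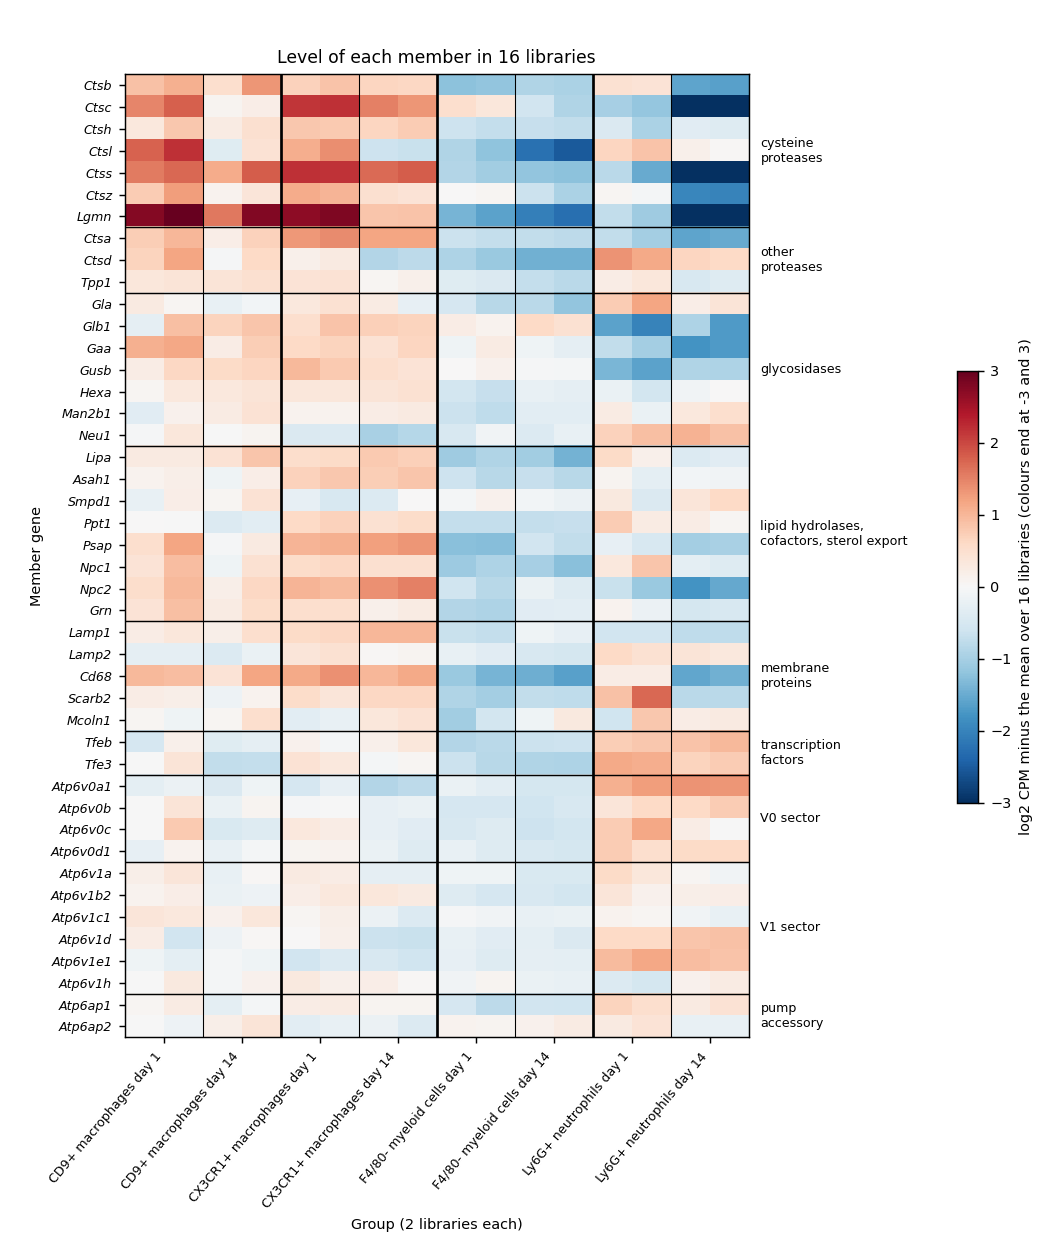
Log2 CPM of each of the 44 lysosomal genes (rows, grouped by role) in 16 libraries (columns, 2 per group), as the difference from that gene's mean over all libraries. Most cysteine proteases are red in both macrophage populations. Ctsl of day 14 is an exception, in the CX3CR1+ libraries and the first CD9+ library. The pump genes of the lower rows vary little, with their darkest red in the neutrophils.

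Compared per kilobase of exon, 2 transcripts dominated. Psap, which encodes the saposins that help glycosidases reach their lipid substrates, reached 1161 CPM per kilobase in CX3CR1+ macrophages of day 1 and 234 in F4/80- cells of day 1. Ctss, the cathepsin that trims the invariant chain in antigen-presenting cells, reached 1314 and 149 in the same groups. The next genes in CX3CR1+ macrophages of day 1 were Cd68 with 246, Lamp1 with 237 and Ctsz with 233 CPM per kilobase. This order depends on the lengths used, which join all annotated exons (1257 bases for Cd68 and 5808 for Ctsc, for example). In neutrophils of day 14 the order was Psap with 282, Ctsd with 125 and Atp6v0d1, a V0 subunit, with 97.6. Ctss stood at 22.2 there.

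Members differed widely in how far their levels ranged over the 8 groups. The ratio of the highest to the lowest group mean was 169 for Lgmn, 69.3 for Ctsc, 59.2 for Ctss and 20.6 for Ctsl, all cysteine proteases. The smallest ratios belonged to Atp6v1c1 with 1.54, Atp6ap2 with 1.55 and Atp6v1h with 1.62, all of the pump. F4/80- cells held the lowest group mean for 25 of the 44 genes, 9 on day 1 and 16 on day 14. Neutrophils held the highest mean for 18, 11 on day 1 and 7 on day 14. No share of all genes was computed for these counts. They rest on TMM-scaled CPM, in which factors of 0.752 to 0.781 raise the neutrophil values. Some margins were narrow: Man2b1 was at 55.4 CPM per kilobase in neutrophils of day 14 and 53.1 in CD9+ macrophages of day 14.

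Enzymes and pump were set against each other within each library, since such a ratio does not depend on how libraries are scaled. Counts on the 25 enzymes, cofactors and sterol export genes were divided by counts on the 12 pump genes. The 4 CX3CR1+ libraries gave ratios of 8.32 and 8.28 on day 1, then 8.48 and 9.31 on day 14. The CD9+ libraries gave 6.57 and 8.06, then 5.55 and 6.90. In F4/80- cells it was 2.84 and 2.89, then 3.45 and 3.24. Neutrophils had 2.71 and 2.33 on day 1 and the lowest values, 1.77 and 1.81, on day 14. Every macrophage library lay above every library of the other populations, and the neutrophils of the different days did not overlap. Sums of counts weigh abundant genes such as Psap and Ctss most. With each gene weighted equally, the mean log2 CPM of enzymes minus pump was 0.61 to 1.02 in macrophage libraries. It was -0.21 to -0.091 in F4/80- cells and -1.14 to -0.37 in neutrophils. Neither measure carries a test.

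**Figure D2:**
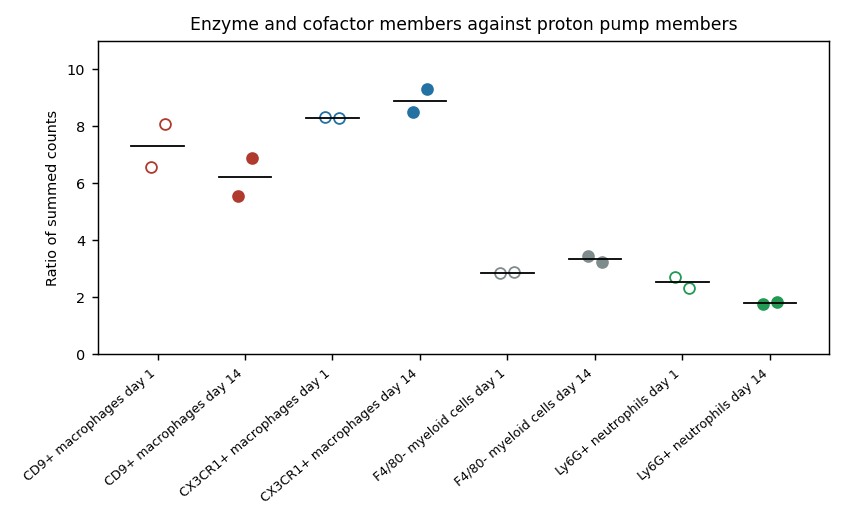
Ratio of counts on 25 enzyme, cofactor and sterol export genes to counts on 12 proton pump genes, per library (open points, day 1; filled points, day 14; bars, mean of 2 libraries). Macrophage libraries lie between 5.55 and 9.31, and neutrophils of day 14 at 1.77 and 1.81.

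The first comparisons asked how lysosomal genes changed between day 1 and day 14 in each population. A gene was called where the Benjamini-Hochberg adjusted p of edgeR's quasi-likelihood test across all genes was under 0.05 and the absolute log2 fold change at least 1. By this rule 9 of the 44 genes (20.5%, beside 13.6% of all genes tested) fell in at least 1 population and none rose in any, beside 8.77% of all genes. Ctsl and Ctsc were called in 3 populations each. A negative log2 fold change in all 4 populations, whatever its p, was found for 17 of the 44 (38.6%, beside 17.4% of all genes). Of the 9, 6 were cysteine proteases.

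In CD9+ macrophages 2 of the 44 (4.55%) fell, beside 3.48% of all genes called lower, and none rose, beside 4.75% called higher. Without a fold threshold 8 were lower and 0 higher at an adjusted p under 0.05, beside 9.24% and 8.46% of all genes. Ctsl, a cysteine protease of broad specificity, stood at 248 and 332 CPM on day 1 and 56.9 and 98.3 on day 14. Its log2 fold change was -1.90 (SE 0.22, adjusted p = 5.9e-05). Ctsc stood at 652 and 815 CPM on day 1 and at 250 and 273 on day 14, a difference of -1.49 on the log2 scale (SE 0.17, adjusted p = 4.3e-05). For both genes the days did not overlap. That held for 21 of the 44, and no share of all genes was computed for such counts, here or below. The median log2 fold change of the 44 was -0.15, beside 0.0041 for all genes tested. Without the first CD9+ library of day 1, 7 of the 44 fell instead of 2, and without the second 1 rose. Of all genes called in this comparison 57.7% were higher on day 14, and 73.0% with scaling by library size alone. The sum of the eosinophil markers was higher on day 14 in these libraries, as given above, and their part in these changes was not tested.

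In CX3CR1+ macrophages 3 of the 44 (6.82%) fell, beside 3.47% of all genes called lower, and none rose, beside 2.39% called higher. With no fold threshold the counts were 9 lower and 1 higher, beside 6.07% and 6.54% of all genes. Ctsl fell from 156 and 193 CPM to 47.3 and 45.9, a log2 fold change of -1.90 (SE 0.22, adjusted p = 5.4e-05). Lgmn encodes legumain, an asparaginyl endopeptidase that processes other cathepsins. It fell from 330 and 360 CPM to 92.0 and 93.1, with a log2 fold change of -1.90 (SE 0.30, adjusted p = 0.00071). Ctsd, the main lysosomal aspartic protease, went from 213 and 233 CPM to 104 and 112, at -1.05 on the log2 scale (SE 0.19, adjusted p = 0.0018). Each of these 3 genes had days that did not overlap, as did 35 of the 44. The Ctsd value was -0.99 without the second CX3CR1+ library of day 1, short of the fold threshold. The median of the 44 was -0.16 and that of all genes 0.031.

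F4/80- myeloid cells gave 2 falls (4.55% of the 44, beside 2.24% of all genes called lower) and no rise (1.01% of all genes called higher). With no fold threshold 3 genes were lower and 2 higher, beside 3.66% and 2.44% of all genes. Ctsl was at 39.1 and 31.5 CPM on day 1 and at 15.5 and 12.7 on day 14, a log2 fold change of -1.32 (SE 0.23, adjusted p = 0.0034). Ctsc was at 335 and 298 CPM and then at 158 and 126, a log2 fold change of -1.16 (SE 0.17, adjusted p = 0.00064). The days did not overlap for either gene, nor for 31 of the 44 in all. Both calls were lost without the second F4/80- library of day 14, when Ctsl stood at -1.18 (adjusted p = 0.071) and Ctsc at -0.99.

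Neutrophils showed the deepest falls. There 7 of the 44 (15.9%) fell, beside 10.9% of all genes called lower, and none rose, beside 3.15% called higher. The share of the 44 that fell was thus not far from that of all genes, but the falls were concentrated in 5 of the 7 cysteine proteases. With no fold threshold 22 were lower and 2 higher, beside 16.2% and 11.5% of all genes. The median log2 fold change was -2.05 for the 7 cysteine proteases, -0.39 for the 44 and -0.015 for all genes.

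Among these, Lgmn went from 30.9 and 24.7 CPM to 3.49 and 1.96, a log2 fold change of -3.37 (SE 0.42, adjusted p = 2.8e-05). Ctsc went from 119 and 105 CPM to 18.1 and 12.8, at -2.87 (SE 0.19, adjusted p = 4.7e-08). Ctss went from 227 and 139 CPM to 34.9 and 25.3, at -2.61 (SE 0.25, adjusted p = 2.2e-06). In all 3 the lowest library of day 1 was several times above the highest of day 14. Scarb2, the membrane receptor that carries glucocerebrosidase to the lysosome, went from 252 and 451 CPM to 78.1 and 78.1, at -2.17 (SE 0.20, adjusted p = 1.6e-06). Ctsb, Ctsz and Cd68 fell by 2.05, 1.99 and 1.71 on the log2 scale. Ctsh, an aminopeptidase among the cysteine cathepsins, moved from 119 and 82.5 CPM to 127 and 124, and was not called.

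The 10 macrophage and monocyte markers moved in the same direction in these neutrophil libraries. All 10 had a lower mean on day 14, by factors of 1.92 to 11.2, and their sum went from 1176 and 1195 CPM to 497 and 504, of which Cd9 and Csf1r made up the greater part. Their part in the fall of the cathepsins was not tested.

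**Figure D3:**
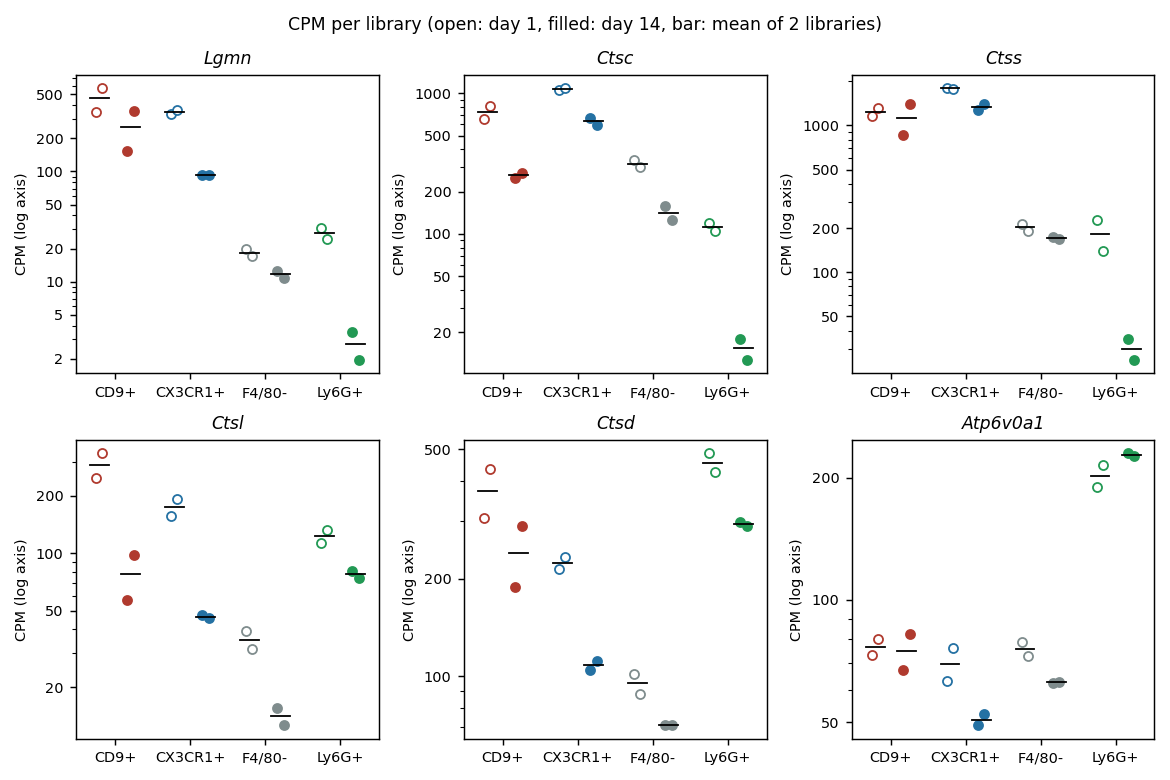
CPM per library (log axis) of 5 proteases and 1 V0 subunit in 4 sorted populations (open points, day 1; filled points, day 14; bars, mean of 2 libraries). Lgmn, Ctsc and Ctss are lowest in neutrophils of day 14, whereas Atp6v0a1 is highest in the neutrophils of both days.

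**Figure D4:**
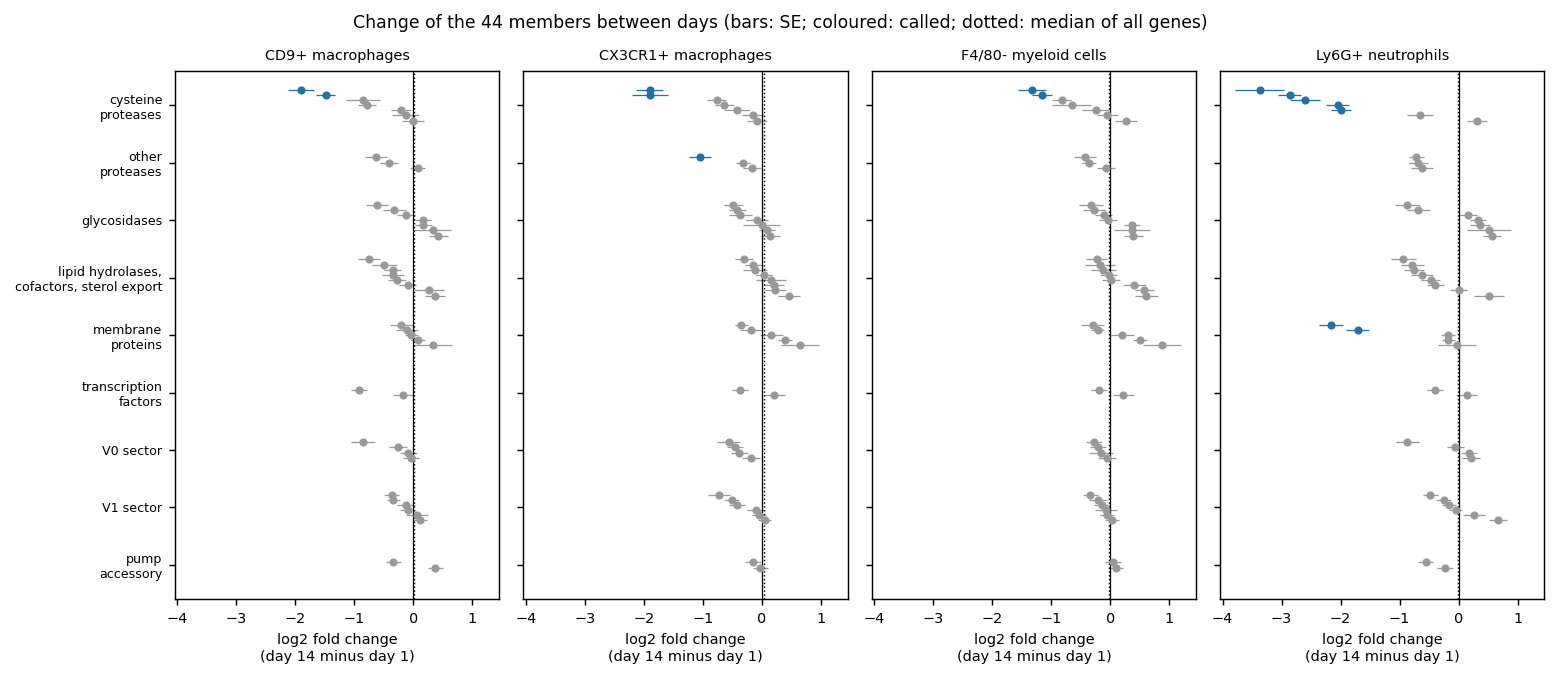
Log2 fold change (day 14 minus day 1, bars SE) of the 44 genes by role in each population, with called genes in colour and the median of all genes as a dotted line. The called genes lie on the negative side, 2 in CD9+ macrophages, 3 in CX3CR1+ macrophages, 2 in F4/80- cells and 7 in neutrophils.

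Whether the change over time differed between populations was tested as an interaction. Between CD9+ and CX3CR1+ macrophages none of the 44 had a different change by edgeR at an adjusted p under 0.05, beside 1.47% of all genes in one direction and 1.38% in the other. At an unadjusted p under 0.05 there were 11, and DESeq2 gave 2 with a more negative change in CD9+ cells. No share of all genes was computed for these counts or for the fits below that leave out 1 library. Of all genes called here 51.6% had a more positive change in CD9+ cells, and 78.9% with scaling by library size alone. Without the first CD9+ library of day 1, 5 had a more negative change in CD9+ cells and 1 a more positive one. Without the second, or without the first CD9+ library of day 14, 1 had a more positive change.

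The change in neutrophils was then set against the mean change of both macrophage populations. It was more negative in neutrophils for 11 of the 44 (25%, beside 9.83% of all genes) and less negative or more positive for 3 (6.82%, beside 4.22%). Ctss had the largest difference, -2.33 (SE 0.29, adjusted p = 8.7e-05), followed by Scarb2 with -2.15 (SE 0.24, adjusted p = 3.5e-05). Lgmn differed by -1.99 (SE 0.48, adjusted p = 0.012), but at -1.61 the adjusted p was 0.12 without the second neutrophil library of day 14. Ctsb, Ctsc, Cd68, Ctsz and Lipa had differences between -1.97 and -1.04. Smaller ones were found for Npc2 (-0.84), Atp6ap2 (-0.74) and Tpp1 (-0.59). Ctsl went the other way, with 1.24 (SE 0.27, adjusted p = 0.0064): in neutrophils it moved from 113 and 132 CPM to 80.6 and 74.6, less than in either macrophage population. Atp6v1h and Gusb, encoding a V1 subunit and β-glucuronidase, also differed in this direction, by 0.78 and 0.69. Without the second neutrophil library of day 14 only 1 of these 3 was called, and without the first CD9+ library of day 1 there were 6.

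The next question was which lysosomal genes separated CD9+ from CX3CR1+ macrophages. On day 1 none of the 44 did at the fold threshold, by edgeR or DESeq2, beside 6.36% of all genes called higher and 1.88% lower in CD9+ cells. At an unadjusted p under 0.05 there were 13, a count for which no share of all genes was computed. With no fold threshold 3 were higher and 6 lower, beside 10.4% and 5.28% of all genes, and the 44 ranged from -0.67 to 0.73 on the log2 scale. Of all genes called on day 1, 77.2% were higher in CD9+ cells, and 55.0% with scaling by library size alone. On day 14, 2 were higher in CD9+ cells (4.55%, beside 9.65% of all genes) and 3 lower (6.82%, beside 4.55%). With no fold threshold 9 were higher and 12 lower, beside 14.5% and 11.8%.

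Lgmn was at 154 and 354 CPM in CD9+ macrophages of day 14 and at 92.0 and 93.1 in CX3CR1+ macrophages, a log2 fold change of 1.46 (SE 0.30, adjusted p = 0.0019). Ctsd was at 189 and 290 against 104 and 112 CPM, at 1.15 (SE 0.19, adjusted p = 0.00031). Although neither gene overlapped between the populations, as was so for 30 of the 44, both calls rested on the second CD9+ library. Without it Lgmn gave 0.72 (adjusted p = 0.05) and Ctsd 0.79 (adjusted p = 0.0062), and no gene was called higher.

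Ctsc was lower in the CD9+ cells, with 250 and 273 CPM against 671 and 590, a log2 fold change of -1.27 (SE 0.17, adjusted p = 3.6e-05). Psap was at 1511 and 1867 against 3595 and 3856 CPM, at -1.14 (SE 0.19, adjusted p = 0.00033). Npc2, the soluble carrier that hands cholesterol to the membrane protein Npc1, was at 116 and 158 against 265 and 293 CPM, at -1.03 (SE 0.19, adjusted p = 0.00078). These 3 are also among the 30 of the 44 that did not overlap. Npc2 lost its call without the first CD9+ library of day 14, at -0.82, and without the second CX3CR1+ library of that day, at -0.97. The CD9+ libraries of day 14 also carried 6597 and 9713 CPM of neutrophil markers and 6606 to 10720 of eosinophil markers, against at most 493 and 89.1 in the CX3CR1+ libraries. Their part in these differences was not tested.

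F4/80- myeloid cells held less of most lysosomal genes than CD9+ macrophages. On day 1, 16 of the 44 were higher in CD9+ cells (36.4%, beside 9.23% of all genes) and none lower (6.16% of all genes). On day 14 it was 12 (27.3%, beside 6.59%) and none (1.11%). The median of the 44 was 0.82 on day 1 and 0.63 on day 14, against 0.0068 and 0.0079 for all genes. Scaling by library size alone left 11 on each day, and it changed the share of all called genes of day 1 that were higher in CD9+ cells from 60.0% to 39.2%. Neutrophil, basophil and mast cell markers were present in the F4/80- libraries, the last summing to 425 to 795 CPM, and their part was not tested.

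By role, 6 of 7 cysteine proteases were called higher in CD9+ cells on each day, whereas none of the 12 pump genes was called on either. Lgmn stood at 349 and 570 CPM in CD9+ macrophages of day 1 and at 19.7 and 17.1 in F4/80- cells, a log2 fold change of 4.64 (SE 0.34, adjusted p = 3.9e-07). On day 14 the difference was 4.44 (SE 0.35, adjusted p = 4.6e-07). Ctsl differed by 3.04 and 2.46 on the log2 scale on the 2 days, and Ctss by 2.61 and 2.72. Cd68, a heavily glycosylated membrane protein of phagocyte lysosomes, was at 255 and 248 CPM against 59.8 and 49.7 on day 1, a difference of 2.20 (SE 0.20, adjusted p = 1.4e-06), and differed by 2.39 on day 14. The pump genes ranged from -0.18 to 0.87 on day 1 and from 0.10 to 0.49 on day 14. At an adjusted p under 0.05 with no fold threshold, 2 V0, 3 V1 and 1 accessory gene were higher in CD9+ cells on day 1. On day 14 it was 1 V1 gene, and on neither day was any pump gene lower.

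Macrophages were last set against neutrophils. Here the scaling matters, because TMM factors were 0.752 to 0.781 for neutrophils and 0.897 to 1.16 for all other libraries. Scaling by library size alone moved the median of all genes by 0.33 to 0.57 towards the macrophages, and upper quartile scaling by 0.21 to 0.27. Genes called lower in macrophages depended on the choice. Of all called genes 56.2%, 59.8%, 52.8% and 56.5% were higher in macrophages (CD9+ day 1 and day 14, then CX3CR1+ day 1 and day 14), and 68.2%, 78.2%, 72.3% and 73.7% with library size scaling.

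CD9+ macrophages had 12 of the 44 higher than neutrophils on day 1 (27.3%, beside 27.9% of all genes) and 14 on day 14 (31.8%, beside 29.6%). Lower were 3 on day 1 (6.82%, beside 21.7%) and 3 on day 14 (6.82%, beside 19.9%). These lower counts became 5 without the second CD9+ library of day 1 and 5 without the second neutrophil library of day 14. CX3CR1+ macrophages had 13 higher on day 1 (29.5%, beside 26.9%) and 16 on day 14 (36.4%, beside 27.1%), with 4 (9.09%, beside 24.1%) and 5 (11.4%, beside 20.9%) lower. As a set, then, these genes were called higher about as often as genes at large in 3 of the 4 comparisons.

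Cysteine proteases were higher in macrophages, 6 and 5 of 7 in CD9+ cells and 5 and 6 of 7 in CX3CR1+ cells on days 1 and 14, with medians from 1.25 to 2.58. Ctsl did not follow them on day 14. It had 47.3 and 45.9 CPM in CX3CR1+ macrophages and 80.6 and 74.6 in neutrophils, a log2 fold change of -0.73 (SE 0.22, adjusted p = 0.0091), short of the fold threshold. In CD9+ macrophages of that day it had 56.9 and 98.3 CPM, which overlap the neutrophils. Against CX3CR1+ macrophages of day 14, Ctss differed most, with 1277 and 1389 CPM against 34.9 and 25.3 in neutrophils, a log2 fold change of 5.47 (SE 0.28, adjusted p = 2.9e-10). Ctsc followed with 5.36 (SE 0.20, adjusted p = 2.3e-11) and Lgmn with 5.11 (SE 0.41, adjusted p = 3.8e-08). Lgmn differed by 6.56 (SE 0.42, adjusted p = 5.2e-09) between CD9+ macrophages and neutrophils of day 14, the largest difference of any of the 44 in the 12 comparisons. Ctsa, the protective protein of β-galactosidase and neuraminidase, was at 392 and 423 CPM in CX3CR1+ macrophages of day 1 and 95.8 and 79.0 in neutrophils, at 2.22 (SE 0.16, adjusted p = 1.3e-08). For Ctss, Ctsc, Lgmn and Ctsa the libraries of the cell types did not overlap in these comparisons. Of the 44, 36 did not overlap for CX3CR1+ cells of day 1, 40 for those of day 14 and 38 for CD9+ cells of day 14.

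Glycosidases split. Gaa, Glb1 and Gusb were called higher in macrophages in all 4 comparisons, with log2 fold changes of 1.38 to 2.48. Glb1, the lysosomal β-galactosidase, was at 16.7 and 21.0 CPM in CX3CR1+ macrophages of day 1 and 3.83 and 2.90 in neutrophils. Neu1, the sialidase, went the other way against CX3CR1+ macrophages, with 58.5 and 59.1 CPM against 128 and 147 in neutrophils on day 1, at -1.23 (SE 0.16, adjusted p = 5.7e-06), and at -1.87 on day 14 (SE 0.16, adjusted p = 8.6e-08). Ctsd was likewise lower in CX3CR1+ cells, at -1.03 on day 1 and -1.45 on day 14. The call of day 1 lay at the fold threshold: it was lost, at -0.91 to -0.97, in 10 of the 16 fits that left out 1 library. Under library size scaling Neu1 and Ctsd of day 1 were at -0.66 and -0.46 and Ctsd of day 14 at -0.94, and none of the 3 was called.

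Pump genes were never called higher in macrophages. With no fold threshold 1 V1 gene was higher in CD9+ cells of day 1, in those of day 14 and in CX3CR1+ cells of day 1, against 2, 3 and 2 V1 genes lower. In CD9+ cells of day 14, 1 accessory gene was higher and 1 lower. Atp6v0a1, the V0 subunit that steers the pump to its membrane, was at 190 and 215 CPM in neutrophils of day 1 and at 230 and 227 on day 14. The other populations stayed between 49.1 and 82.6 in every library. Its log2 fold changes ran from -1.40 against CD9+ cells of day 1 (SE 0.14, adjusted p = 3.9e-07) to -2.17 against CX3CR1+ cells of day 14 (SE 0.14, adjusted p = 3.4e-09). Atp6v1e1, in the peripheral stalk of V1, was at 293 and 336 CPM in neutrophils of day 1 and at most 139 in CD9+ and CX3CR1+ macrophages of that day, at -1.26 and -1.54. Atp6v1d was called only against CX3CR1+ cells of day 14, with 55.2 and 54.1 CPM against 153 and 159. The remaining 9 pump genes were not called in any of the 4 comparisons. By library size scaling, Atp6v0a1 was at -0.97 in CX3CR1+ cells of day 1, just short of the threshold, and Atp6v1e1 lost every call at -0.93, -0.97 and -0.91.

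**Figure D5:**
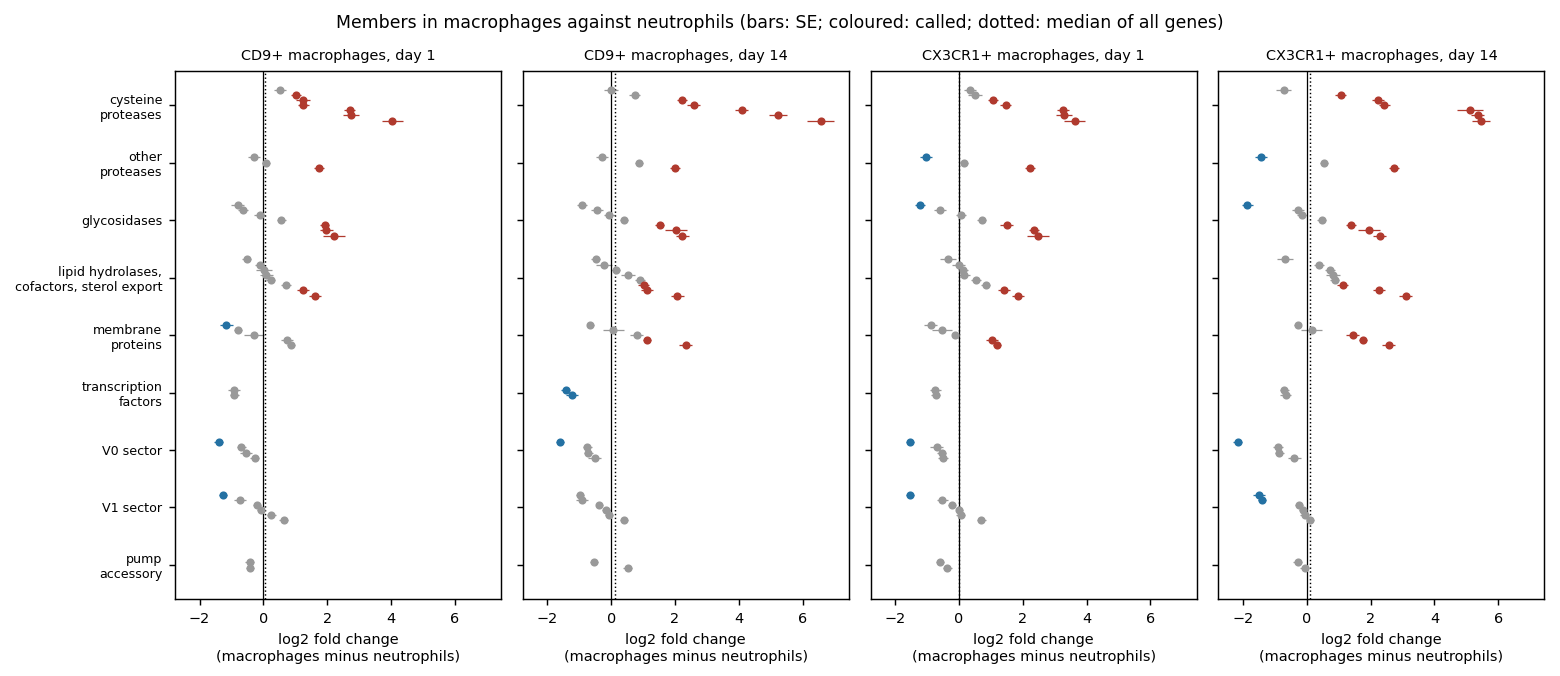
Log2 fold change (macrophages minus neutrophils, bars SE) of the 44 genes by role, with called genes in colour and the median of all genes as a dotted line. Cysteine proteases reach 6.56 on the right, whereas the called pump genes lie on the left, down to -2.17.

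Tfeb and Tfe3, which act on the promoters of lysosomal genes, were called higher in neutrophils than in CD9+ macrophages on day 14. On day 1 their log2 fold changes were -0.93 and -0.91, short of the fold threshold. Tfe3 was at 46.6 and 46.9 CPM in CD9+ macrophages of day 14 and 122 and 130 in neutrophils, a log2 fold change of -1.43 (SE 0.14, adjusted p = 4e-07). Tfeb was at 39.7 and 42.6 against 93.2 and 101 CPM, at -1.24 (SE 0.18, adjusted p = 2.2e-05). Under library size scaling these became -0.94 and -0.74, and neither was called.

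The palindrome TCACGTGA, the core of the element these factors bind, was searched for on both strands in RefSeq promoter entries of build GRCm38.p6. The search ran from 250 bases before to 50 bases after the start that each entry gives. An entry was found for 37 of the 44 genes. The palindrome stood in 6 of 37 (16.2%), beside 2.29% of 8851 tested genes with an entry and 1.12% of all 27025 genes. Every palindrome also holds the shorter words, and TCACGTG stood in 11 (29.7%, beside 7.25% and 4.29%), and CACGTG in 12 (32.4%, beside 12% and 8.09%). In the 250 bases before the start alone the palindrome was in 5. These are matches of letters and were not read as binding sites.

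The 6 genes with the palindrome were Ctsa, Ctsd, Mcoln1, Gla, Atp6v0d1 and Atp6v1a. The 5 that hold it wholly before the start are shown. In Atp6v0d1 it begins at -4 and crosses the start. Each line gives a window of 80 bases upstream of the entry's start, 5′ to 3′ in the gene's reading direction, with the palindrome in capitals. Positions count from that start as 0. The palindrome's first base lies at -99 in Ctsd and at -13 in Ctsa, with another at 4 outside the window shown. It lies at -228 and -195 in Gla, -46 in Mcoln1 and -132 in Atp6v1a. In all 5 genes the entry's start lies inside the gene's span in the count table. The windows of Ctsd, Ctsa and Atp6v1a therefore lie within that span.
Ctsd, chr7:142387883-142387962, minus strand: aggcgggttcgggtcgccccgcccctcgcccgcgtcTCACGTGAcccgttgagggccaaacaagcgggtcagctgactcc
Ctsa, chr2:164833693-164833772, plus strand: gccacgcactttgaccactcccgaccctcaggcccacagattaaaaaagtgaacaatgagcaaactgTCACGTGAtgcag
Gla, chrX:134601176-134601255, minus strand: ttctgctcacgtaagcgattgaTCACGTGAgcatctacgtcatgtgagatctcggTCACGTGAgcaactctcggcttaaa
Mcoln1, chr8:3500437-3500516, plus strand: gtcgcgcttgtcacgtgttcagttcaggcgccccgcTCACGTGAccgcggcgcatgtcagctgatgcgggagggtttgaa
Atp6v1a, chr16:44139348-44139427, minus strand: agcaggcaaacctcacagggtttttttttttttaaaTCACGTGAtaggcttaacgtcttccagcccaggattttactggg

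Genes with the palindrome differed in direction. Between CX3CR1+ macrophages and neutrophils of day 1, Ctsa was at 2.22 and Ctsd at -1.03 on the log2 scale. The Ctsd call lay at the fold threshold, as given above. Both genes carry the palindrome, and its part in these levels was not tested. Mcoln1, a calcium channel of the lysosomal membrane, was at 20.0 and 21.3 CPM in CX3CR1+ macrophages of day 1 and at 16.3 and 43.6 in neutrophils, which overlap. Gla, α-galactosidase, was at 46.3 and 51.0 against 63.4 and 84.2 CPM. Lgmn holds the shorter TCACGTG at -50, and Ctsl holds CACGTG at -236.

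Beyond the 44, a list of 65 further lysosomal genes was described by counts, of which 55 were tested. Over time 3 rose (5.45%, beside 4.75% of all genes) and 1 fell (1.82%, beside 3.48%) in CD9+ macrophages, and 5 fell in CX3CR1+ macrophages (9.09%, beside 3.47%). In F4/80- cells 1 fell (1.82%, beside 2.24%), and in neutrophils 11 did (20%, beside 10.9%). The counts in CD9+ macrophages and F4/80- cells were thus near or below those of genes at large. Cstb, encoding cystatin B, an inhibitor of cysteine cathepsins, was among the genes called lower. It fell by 1.31 on the log2 scale in CD9+ macrophages (adjusted p = 0.00043) and by 1.16 in CX3CR1+ macrophages (adjusted p = 0.0012). The fall in neutrophils was 2.54 (adjusted p = 4.9e-07). Of the 3 cystatin genes tested, no other was called in these populations. Positive changes were found for 2 of the 3 in CD9+ macrophages, 1 in CX3CR1+ macrophages and 1 in neutrophils. In neutrophils M6pr, the mannose 6-phosphate receptor that sorts hydrolases, fell by 1.71 (adjusted p = 1.2e-06). Of the 6 sorting genes tested, 4 had positive changes there. Mitf and Tfec, of the same family as Tfeb, had log2 fold changes of -1.68 and -2.49 in neutrophils. Genes not named here reached -4.03 among further pump subunits and -2.99 among further hydrolases in neutrophils, and -3.17 among sorting genes in CX3CR1+ macrophages. Abcb9, Arsb and Cd63 rose in CD9+ macrophages, by 3.77, 2.20 and 1.19.

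Between the macrophage populations of day 14 this list gave 9 genes higher (16.4%, beside 9.65% of all genes) and 3 lower (5.45%, beside 4.55%) in CD9+ cells. Atp6v0d2, the V0 subunit isoform of osteoclasts, had 33.9 and 47.6 CPM in the CD9+ libraries and 0.871 and 0 in the CX3CR1+ libraries, 1 of which was thus at 0. Ctsk, the collagen-cutting cathepsin of osteoclasts, had 129 and 123 against 0.697 and 2.23 CPM, a log2 fold change of 6.44 (SE 1.27, adjusted p = 0.0013). These are 2 of 6 osteoclast genes in the table, which summed to 257 to 285 CPM in CD9+ macrophages of day 14 and to at most 29.9 in any library of the other populations.

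Some members share exon bases with a neighbouring gene, and it was not stated whether counting used the strand. Ctsd shares 34.4% of its exon bases with Gm49369 on the same strand, and Ctsl shares 26.8% with Gm47123 on the opposite strand. For 4 others, Ctsb, Ctsa, Atp6v0b and Hexa, the largest overlap was 10.5% to 12.8%, in each case with a gene on the opposite strand. Values for Ctsd and Ctsl are therefore less certain than those for Lgmn, Ctsc and Ctss, of which none shares an exon base with another annotated gene.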

How the data were processed

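Bulk RNA-seq of 16 libraries was analysed, 2 in each of 8 groups. The authors made SMART-Seq Stranded libraries, aligned the trimmed reads with STAR to mm10 and deposited raw counts of reads in exons per gene (Gencode annotation), without normalization. How the 20200 listed genes were kept is not given in the sources used here.

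Genes with a group mean of at least 3 CPM in at least 1 group were kept (11998). TMM factors were computed on these, and all 16 libraries were fitted with 1 mean per group and no covariate in edgeR 4.0.16 (glmQLFit, glmQLFTest; R 4.3.3), with Benjamini-Hochberg adjustment over all genes. The common biological coefficient of variation was 0.178. CPM carries the TMM factors and no prior count. Lengths are exon unions of GENCODE vM21, in which 19732 of 20193 matched genes keep the coordinates of the table. The code was tested on simulated data.

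The 44 members and all lists were chosen with earlier results of these data known. All members could be named. Library values go to the called members with the largest changes, up to 4 per direction in a comparison. Other genes of the pathway are given by counts and up to 4 called genes per direction, which were not always those with the largest changes. Psap, Cd68, Glb1, Tfeb and other members were also given values to describe their role. Alternatives were other scalings, DESeq2 1.42.0, other filters, no fold threshold, a replicate block and leaving out each library. Libraries of a day that share a number were taken as 1 pool of mice, an inference from the labels and the sort. Their deviations correlated at 0.0132 to 0.144 over 12 pairs.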

Additional observations from a re-analysis of the deposited data

Results flagged for a closer look

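The change over time differed between neutrophils and the mean of both macrophage populations for 14 of the 44 genes, by edgeR's interaction test at an adjusted p under 0.05. The difference, in log2 units and as neutrophils minus macrophages, was -2.33 for Ctss, -2.15 for Scarb2, -1.99 for Lgmn, -1.97 for Ctsb, -1.74 for Ctsc, -1.57 for Cd68 and -1.28 for Ctsz. It was -1.04 for Lipa, the acid lipase, -0.84 for Npc2, -0.74 for Atp6ap2 and -0.59 for Tpp1, a tripeptidyl peptidase. In the other direction it was 0.69 for Gusb, 0.78 for Atp6v1h and 1.24 for Ctsl. Leaving out 1 library ended the calls of Lgmn, Npc2, Tpp1, Gusb or Atp6v1h in at least 1 case each, among them Npc2 at -0.60 (adjusted p = 0.13) without the first neutrophil library of day 1. Scarb2 rests on neutrophil libraries of day 1 that stood apart, at 252 and 451 CPM. With 2 libraries in each group, no group was large enough for a test of single outlying libraries.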

How the results depend on the processing

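Of 131 calls of a member in a comparison, 0 reversed under any alternative, 20 were lost under at least 1 other scaling, tool or filter, and 26 when 1 library was left out. Library size scaling lost 16, upper quartile scaling 4, DESeq2 4, no filter 3 and filterByExpr 2. Adding a replicate block (libraries of 1 day that share a number) kept all calls, so that 131 of 131 stood and 0 were lost. Without a fold threshold the counts higher and lower became 0 and 8 (CD9+ over time), 1 and 9 (CX3CR1+), 2 and 3 (F4/80-), 2 and 22 (neutrophils), 3 and 6 (CD9+ minus CX3CR1+, day 1), 9 and 12 (day 14). They were 33 and 25 higher in CD9+ than F4/80- cells. Against neutrophils 14 were lower in CD9+ cells of day 1, 22 higher and 13 lower on day 14, and 14 and 12 lower in CX3CR1+ cells. For the comparisons with F4/80- cells and neutrophils, the share of all genes was computed only with the fold threshold, as given above. Library size scaling left 1, 1, 0 and 3 lower in macrophages than neutrophils, and upper quartile scaling 2 in CX3CR1+ cells of day 1. For the difference in time change between the macrophages, library size scaling gave 1 higher, DESeq2 2 lower and no filter 1 lower.

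Leaving out 1 library gave ranges of 0 to 1 higher and 2 to 7 lower (CD9+ over time), 0 to 2 lower (F4/80-), 0 to 3 higher (CD9+ minus CX3CR1+, day 14), and 2 to 5 and 3 to 5 lower (CD9+ minus neutrophils, day 1 and 14). The differences in time change gave 0 to 1 higher and 0 to 5 lower between macrophages and 1 to 6 higher for neutrophils. The lone library was then assumed to vary like the other groups. No share of all genes was computed for these fits. Causes were not tested.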
